A study of Mus musculus with 6 samples.

Results

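The 33 genes described here are those of amino acid stress and tRNA charging in mouse cells: 21 genes of the amino acid and endoplasmic reticulum (ER) stress response, and 12 cytosolic aminoacyl-tRNA synthetases. They were chosen by gene symbol from a fixed list and not by a cut on measured values. Earlier results of these data were known when the list was chosen. All 33 had a probe on the array, and 32 passed the filter on dim probes, out of 15996 genes and unnamed probes tested. The exception was Psph.

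Cells that run short of an amino acid hold more uncharged tRNA, which activates a kinase of the translation factor eIF2, and phosphorylated eIF2 slows most translation while the transcription factor ATF4 is translated more. ATF4 pairs with C/EBP family proteins on the C/EBP-ATF response element and raises genes for amino acid synthesis, import and tRNA charging. Unfolded protein in the ER feeds into the same pathway through another eIF2 kinase, beside separate arms that use XBP1 and ATF6. Pluripotent mouse cells are known to depend on amino acid supply and one-carbon metabolism for growth.

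Total RNA came from embryoid bodies, aggregates in which embryonic stem (ES) cells differentiate, at day 3. It was hybridised to 6 Illumina bead arrays on 1 slide. The labels assign 3 arrays to wild type E14 ES cells and 3 to endoglin knockout ES cells, here named WT 1 to WT 3 and KO 1 to KO 3, and the question of the series was what loss of endoglin, a TGF-beta family co-receptor, changes. Every sample is labelled as strain C57BL/6, although E14 is a line of another strain background, and the sources used here do not say how the knockout was made, whether it is 1 clone, or whether replicates were separate cultures. All p-values therefore measure only the spread between these arrays, which may be technical, and the number of arrays limits the precision. No stressor or amino acid withdrawal is named in the labels, so the values are levels in growing embryoid bodies. In such bulk RNA, fewer cells of a type and less RNA per cell cannot be told apart.

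The arrays labelled KO 1 and WT 3 stood apart from their labels. Eng, the targeted gene, read 87.0, 90.6 and 44.4 on WT 1 to WT 3 and 73.5, 45.4 and 48.7 on KO 1 to KO 3, with a background limit (the 95th percentile of the background signal) of 46.0 to 46.2 per array. Its signal was therefore low on an array labelled wild type and high on one labelled knockout. Between WT 3 and each of KO 2 and KO 3, 0 features were at least 2-fold apart, against 104 and 98 between WT 3 and each of WT 1 and WT 2. The summed intensity of 6 haemangioblast and endothelial markers was 6049 to 6555 on WT 1, WT 2 and KO 1 and 2104 to 2356 on WT 3, KO 2 and KO 3. Markers of primitive streak and early mesoderm summed to 11961 to 12080 on the former arrays and 6393 to 7574 on the latter, and ES cell markers to 5288 to 5523 and 7092 to 7396. The 5 extraembryonic endoderm markers tested summed to 2147 to 2468 and 1137 to 1348, with Gata4, Gata6 and Sox17 higher on the former arrays and Dab2 and Ttr on the latter. Of the feeder fibroblast markers, Col1a1, Col1a2, Lum and Postn were not above background on any array. Thy1 was above it on all 6, at 177, 172 and 185 on WT 1 to WT 3 and 161, 188 and 198 on KO 1 to KO 3, and Dcn on KO 1 to KO 3, at 46.9 to 49.3. The 2 feeder markers summed to 208 to 227 on WT 1 to WT 3 and KO 1 and to 237 and 247 on KO 2 and KO 3. The same 3 and 3 arrays lie at slide positions A to C and D to F, so this division and slide position cannot be told apart. Each result is given as labelled over all 6 arrays, and then without KO 1 and WT 3 where that changes it.

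Promoter windows from 250 bases before to 50 bases after the gene start were searched for the C/EBP-ATF response element, written TGATGNAA, on both strands. The sequences are RefSeq's, build GRCm38.p6. The element occurred in 11 of the 28 members that had a window. By window, it occurred in 11 of their 30, against 1304 of all 32851 windows (3.97%). Of the 8 synthetases with a window, 5 held it: Aars, Gars, Iars, Tars and Yars. The sites are shown because they are the shared sequence feature of genes from different roles. Each is printed on the strand of its gene, with the element in capitals, which reads TTNCATCA where it lies on the opposite strand.
Asns (chr6:7693214-7693243, minus strand): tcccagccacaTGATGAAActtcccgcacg
Atf3 (chr1:191183425-191183454, minus strand): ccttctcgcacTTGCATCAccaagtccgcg
Chac1 (chr2:119351038-119351067, plus strand): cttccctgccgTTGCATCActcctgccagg
Trib3 (chr2:152344028-152344057, minus strand): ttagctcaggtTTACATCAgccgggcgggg
Herpud1 (chr8:94386306-94386335, plus strand): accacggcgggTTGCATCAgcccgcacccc
Slc7a11, site 1 (chr3:50443661-50443690, minus strand): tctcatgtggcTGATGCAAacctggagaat
Slc7a11, site 2 (chr3:50443642-50443671, minus strand): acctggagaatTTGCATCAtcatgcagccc
Aars (chr8:111033840-111033869, plus strand): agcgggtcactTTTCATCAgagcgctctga
Gars (chr6:55037960-55037989, plus strand): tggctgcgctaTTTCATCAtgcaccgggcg
Iars (chr13:49682126-49682155, plus strand): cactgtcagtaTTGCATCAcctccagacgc
Tars (chr15:11399655-11399684, minus strand): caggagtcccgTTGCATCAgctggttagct
Yars (chr4:129189895-129189924, plus strand): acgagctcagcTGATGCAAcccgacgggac

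The core TTGCATCA was thus shared letter for letter by Atf3, Chac1, Herpud1, Iars, Tars and the second Slc7a11 site, while Yars and the first Slc7a11 site held it on the other strand. The sites shown for Aars, Trib3, Iars and Yars began 4 to 15 bases after the annotated start, and the others before it. The ER stress element, CCAAT followed by 9 bases of any kind and CCACG, occurred in 1 member, Hspa5. By window, this is 1 of the members' 30, against 39 of all windows (0.119%). The site is shown with the element in capitals.
Hspa5 (chr2:34772014-34772054, plus strand): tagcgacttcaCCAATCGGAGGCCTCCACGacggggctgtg

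Chac1 is one of the 4 members on which the comparison without KO 1 and WT 3 turned, and the only one of them with an element in its window. Its 250 bases before the start (chr2:119350992-119351241, plus strand) are printed with the element in capitals.
Chac1: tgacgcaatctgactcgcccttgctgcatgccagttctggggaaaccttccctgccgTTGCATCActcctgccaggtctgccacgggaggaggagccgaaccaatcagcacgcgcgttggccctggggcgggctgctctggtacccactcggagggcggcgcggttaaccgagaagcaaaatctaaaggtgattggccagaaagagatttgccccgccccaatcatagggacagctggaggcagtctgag

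A match is a description of letters only, and nothing about binding was measured. Psat1 and Shmt2 had a window without a match, and Slc7a5 had no window in the table.

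As labelled, no member was called higher or lower in the knockout. Differences are on the log2 scale of the background-corrected intensity plus an offset, which understates the change of dim genes, and a gene was called at an adjusted p under 0.05. With limma and Benjamini-Hochberg adjustment over all 15996 features, 0 of 32 members were called, and 0 of all features (percent called: 0), while 349 features had an unadjusted p under 0.05. None of the members did, the smallest being 0.061 for Atf4. Of the members, 15 lay above 0 and 17 below, and their median log2 difference, knockout minus wild type, was -0.03, against 0.00 over all features. The labels did not overlap for 1 member, Eprs, which is 3.12% of the members tested, against 6.93% of all features. Over the 6 arrays the median ratio of highest to lowest intensity was 1.29 for the members and 1.25 for all features.

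**Figure D1:**
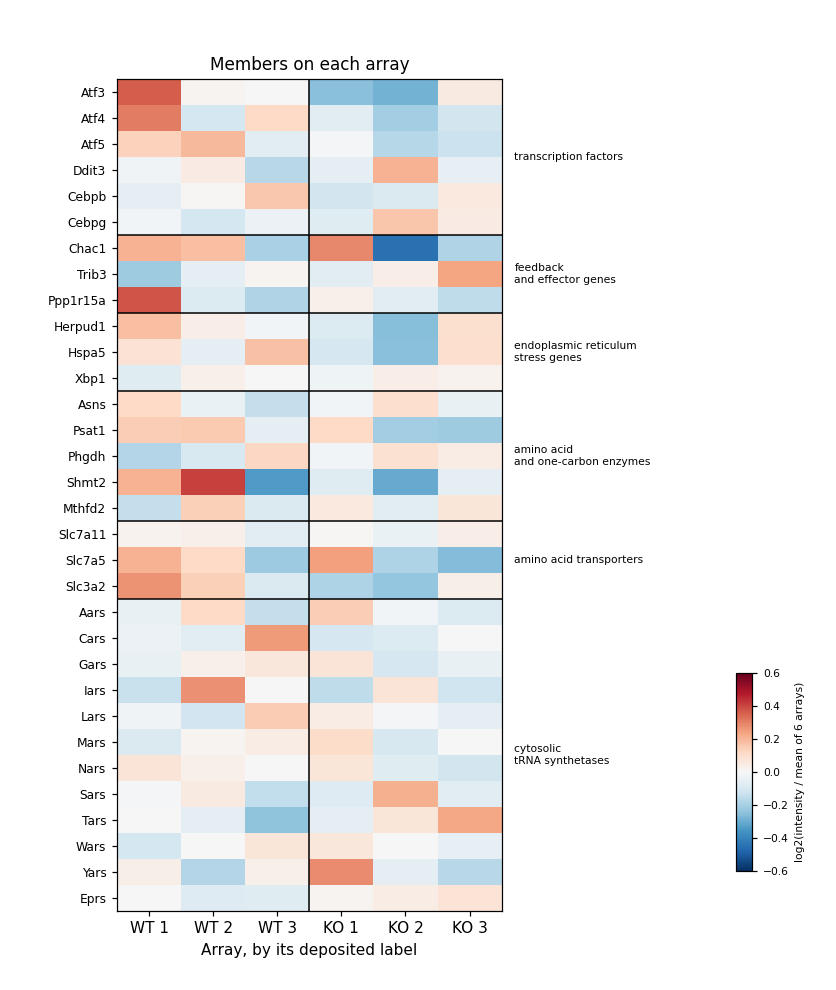
Intensity of the 32 members tested on each array, as log2 of the intensity over the mean of that gene's 6 arrays (red higher, blue lower), in rows ordered by role and columns by label. Chac1, Slc7a5 and Psat1 are high on WT 1, WT 2 and KO 1, while most synthetase rows are pale on every array.

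Among the transcription factors, Atf4, the central activator of the response, read 941, 707 and 827 on WT 1 to WT 3 and 725, 659 and 705 on KO 1 to KO 3. WT 1 and WT 3 were the highest, but WT 2 lay between knockout arrays. The log2 difference was -0.23 (SE 0.10, 95% interval -0.47 to 0.01). Atf3, a stress-induced factor that acts beside ATF4, read 62.2, 48.9 and 48.2 against 40.7, 39.7 and 50.2, so KO 1 and KO 2 were below the background limit and KO 3 above WT 2 and WT 3. Its difference was -0.19 (SE 0.10). Atf5, a relative of ATF4, read 117, 122 and 102 against 106, 94.5 and 97.6, a difference of -0.16 (SE 0.08), with WT 3 under KO 1. KO 2 was the lowest array for each of these 3 factors, and none passed the threshold in limma (adjusted p = 0.9995 for every member over 6 arrays).

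Ddit3, which encodes the factor CHOP of prolonged stress, read 77.1, 80.7 and 69.6 on the wild type labels and 75.2, 90.3 and 75.5 on the knockout labels. KO 2 was the highest and WT 3 the lowest, and the other 4 arrays were mixed. Cebpb and Cebpg encode C/EBP partners of ATF4. Cebpb read 172, 179 and 199 against 165, 168 and 185, a difference of -0.08 (SE 0.08), and Cebpg 629, 592 and 620.0 against 605, 714 and 658, a difference of 0.10 (SE 0.08). In both the labels overlapped.

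Chac1, a glutathione-degrading enzyme induced through ATF4, varied most among the feedback and effector genes. It read 180.2, 176 and 136 on WT 1 to WT 3 and 189.9, 114 and 137 on KO 1 to KO 3. The highest and the lowest array carried the same label, and WT 3 was level with KO 3. The difference as labelled was -0.15 (SE 0.17, 95% interval -0.54 to 0.24). Trib3, a pseudokinase that dampens ATF4 output, read 109, 122 and 128 against 121, 130.4 and 149.5, a difference of 0.13 (SE 0.09), with KO 3 highest and WT 1 lowest. Ppp1r15a, the GADD34 subunit that directs dephosphorylation of eIF2, read 181, 131 and 123 against 142, 133 and 125, so that WT 1 stood above all other arrays. In these 3 genes both KO 1 and WT 3 lay nearer to the mean of the other label's arrays than to their own.

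In the ER stress genes the labels overlapped throughout. Hspa5, the ER chaperone BiP, read 157, 142 and 167 on WT 1 to WT 3 and 138, 124 and 158 on KO 1 to KO 3, and Herpud1, an ER-associated degradation factor, read 171, 155 and 149.6 against 143, 127 and 161. Both were lowest on KO 2, and on KO 3 both lay within the wild type range. Their differences were -0.13 (SE 0.09) each. Xbp1, whose mRNA is spliced by the sensor IRE1, was level at 1793, 1924 and 1889.7 against 1849, 1939 and 1910.1, a difference of 0.02 (SE 0.06). The splicing itself was not measured here.

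Of the enzymes, Asns, which makes asparagine and is a textbook ATF4 target, was among the steadier members at 1299.6, 1163 and 1081 on WT 1 to WT 3 and 1183, 1283 and 1158 on KO 1 to KO 3. WT 1 and KO 2 were the high arrays, and the difference was 0.03 (SE 0.08, 95% interval -0.16 to 0.23). Serine synthesis runs through Phgdh, Psat1 and Psph. Phgdh, its first step, read 173, 183 and 213 against 194, 208 and 201, a difference of 0.08 (SE 0.08), and Psat1, the next step, read 1695, 1706 and 1478 against 1665, 1324 and 1322, a difference of -0.18 (SE 0.11). Psat1 was high on WT 1, WT 2 and KO 1, low on KO 2 and KO 3, and in between on WT 3. Psph, the last step, was not above the background limit on any array, with 42.5, 42.2 and 37.4 against 36.0, 35.9 and 38.5, and has no fold.

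Shmt2 and Mthfd2 carry one-carbon units from serine in mitochondria. Shmt2 read 320.0, 369 and 219 on WT 1 to WT 3 and 263, 225 and 267 on KO 1 to KO 3, the widest spread of all members at 1.68-fold. WT 3 was the lowest array and WT 2 the highest, both of 1 label, and the difference was -0.22 (SE 0.17). Mthfd2 read 1058, 1289 and 1100.2 against 1215, 1112 and 1228, a difference of 0.05 (SE 0.09).

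Of the transporters, Slc7a5, the LAT1 carrier of large neutral amino acids, read 1772, 1669 and 1321 on WT 1 to WT 3 and 1819, 1349.7 and 1279.7 on KO 1 to KO 3. WT 1, WT 2 and KO 1 were high, at 1669 or more, and the other 3 arrays low, at 1349.7 or less. The difference as labelled was -0.10 (SE 0.16). Slc3a2, the heavy chain that LAT1 and the cystine carrier need at the cell surface, read 109.9, 101 and 85.9 against 80.3, 77.8 and 93.5, a difference of -0.19 (SE 0.09). Here KO 1 lay with KO 2 and not with WT 1, so partners of 1 transporter were ordered differently over the arrays. Slc7a11, the light chain of the cystine carrier, read 67.9, 68.2 and 64.0 against 67.2, 64.9 and 68.7. Its ratio of highest to lowest, 1.07, was the smallest of the members tested. The signal was near background, however, which narrows such a ratio, and the bright Xbp1 had 1.08. A second Slc7a11 probe that passed the filter had 1.26.

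**Figure D2:**
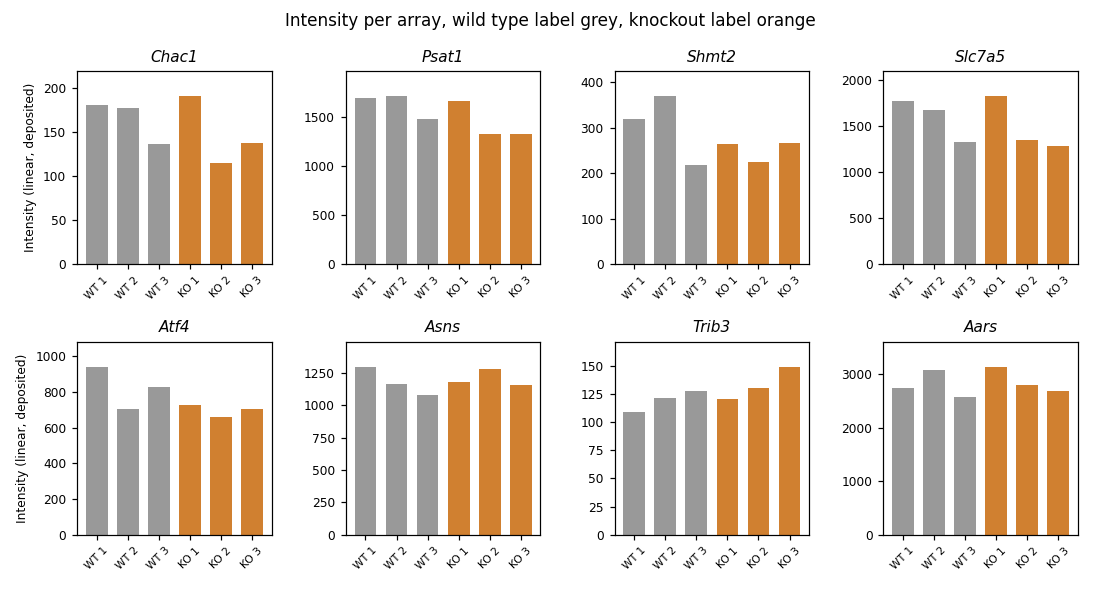
Deposited intensity (linear, bars from 0) of 8 members on each array, grey for the wild type label and orange for the knockout label. Slc7a5 stands at 1669 to 1819 on WT 1, WT 2 and KO 1 and at 1279.7 to 1349.7 on the other arrays, while Asns and Aars show no such division.

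The 12 synthetases, each of which joins an amino acid to its tRNA, had small differences between the labels. These ran from -0.10 to 0.17, with a median of 0.02, and the median size of a difference was 0.05, against 0.06 over all features. At the brightest probe of each, the ratio of highest to lowest intensity was 1.12 to 1.39. Of these ratios 0 of 12 exceeded 1.5-fold, against 10.2% of all features. Some second probes that passed the filter ranged wider, at 1.499 for Sars, 1.48 for Gars, 1.43 for Iars and 1.41 for Wars. Those of Aars, Cars, Lars and Tars had 1.29 or less. On WT 1 to WT 3 the second Wars probe read 241, 278 and 328, against 233, 312 and 301 on KO 1 to KO 3. It was thus lower on WT 1, WT 2 and KO 1 than on the other arrays. The 95% intervals of the 12 differences lay between -0.33 and 0.39, so a change of 2-fold on the offset scale lies outside each of them.

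Aars, for alanine, read 2748, 3078 and 2565 on WT 1 to WT 3 and 3136, 2801 and 2679 on KO 1 to KO 3, with KO 1 highest and WT 3 lowest. Gars, for glycine, had 6632, 6998 and 7169 against 7229.5, 6387 and 6632. Lars, for leucine, had 3649, 3424 and 4114 against 3816, 3677 and 3558. Their differences of 0.04, -0.04 and -0.01 (SE 0.09, 0.07 and 0.08) were each smaller than their SE. Tars, for threonine, had the largest difference of the 12, 0.17 (SE 0.09), with 350.0, 336 and 296 against 336, 367 and 411. KO 3 was highest and WT 3 lowest, but KO 1 and WT 2 were level. Eprs, the enzyme for both glutamate and proline, read 78.4, 74.1 and 74.3 against 79.0, 80.6 and 82.7. It was the only member whose labels did not overlap, by a margin of less than 1 unit, and its difference was 0.07 (SE 0.06).

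Sars, for serine, read 839.5, 875 and 762 on WT 1 to WT 3 and 799, 977 and 804 on KO 1 to KO 3, with KO 2 highest. Iars, for isoleucine, had 114, 151 and 125 against 112, 132 and 115, and Cars, for cysteine, 115, 112 and 140.1 against 109.5, 111 and 117. Each stood high on 1 array labelled wild type, WT 2 for Iars and WT 3 for Cars, and both differences were about -0.10 (-0.095, SE 0.10 for Iars and 0.09 for Cars). Yars, for tyrosine, was the dimmest, at 58.5, 50.6 and 58.4 against 69.7, 55.0 and 50.9, with KO 1 highest. Mars, for methionine, read 1072, 1149 and 1173 against 1228, 1065 and 1139. Nars, for asparagine, had 752, 728 and 712 against 751, 679 and 660.4, and Wars, for tryptophan, 849, 914 and 962 against 959, 916 and 882. In the last 3 enzymes KO 1 lay at or above the middle of the wild type range, and the differences were 0.01, -0.07 and 0.02 (SE 0.07 each).

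**Figure D3:**
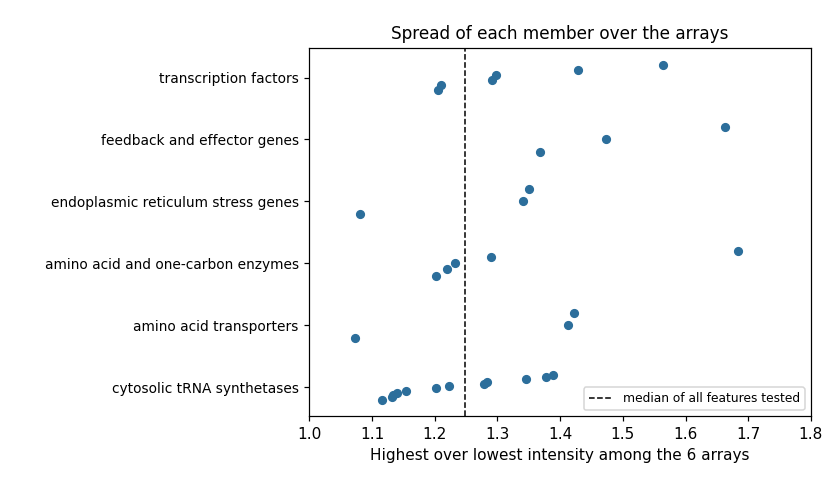
Ratio of the highest to the lowest intensity over the 6 arrays for each tested member (1 point per gene), by role, with the median of all features tested as a dashed line. The synthetases lie between 1.12 and 1.39, and the points beyond 1.5 are Atf3, Chac1 and Shmt2. Each gene is shown at its brightest probe.

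Probes of 1 gene did not always give the same direction. Of 14 members with several probes above background, 7 had differences of 1 sign at all their probes and 7 did not. The latter were Atf4, Shmt2, Slc7a11, Cars, Iars, Lars and Wars. For Atf4 the second probe, at 111, 113 and 93.7 against 91.9, 88.6 and 93.9, gave -0.17 (SE 0.08), like the brightest, while the third gave 0.11 (SE 0.10). Of the 32 probes of these genes, 1 had an unadjusted p under 0.05, a dimmer Cars probe, which read 66.0, 67.4 and 72.1 on WT 1 to WT 3 and 81.4, 85.3 and 72.9 on KO 1 to KO 3. Its difference was 0.17, against -0.09 at the brightest Cars probe, and limma called neither.

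Without KO 1 and WT 3, 4 members were called, all lower in the arrays left under the knockout label. This is 12.5% of the members tested, against 4.41% of all features called lower. In the other direction 0 members were called, against 3.87% of all features called higher. Shmt2 differed by -0.45 (SE 0.10, limma adjusted p = 0.020), Chac1 by -0.44 (SE 0.09, limma adjusted p = 0.015), Slc7a5 by -0.38 (SE 0.08, limma adjusted p = 0.017) and Psat1 by -0.36 (SE 0.08, limma adjusted p = 0.019). They are a serine to one-carbon enzyme, a glutathione enzyme, a carrier of large neutral amino acids and a serine synthesis enzyme. The 2 arrays were left out because of their values, so this count is not independent evidence of a difference between the genotypes.

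Within slide positions, Psat1 was lower under the knockout label in both groups of positions, and Chac1, Slc7a5 and Shmt2 were each lower in 1 group and higher in the other. Each group holds 1 array of 1 label, so these values have no test of their own. At positions A to C, KO 1 differed from the mean of WT 1 and WT 2 by 0.08 for Chac1, 0.08 for Slc7a5, -0.03 for Psat1 and -0.36 for Shmt2. At positions D to F, the mean of KO 2 and KO 3 differed from WT 3 by -0.10 for Chac1, -0.01 for Slc7a5, -0.16 for Psat1 and 0.14 for Shmt2. With slide position as a block, limma called 0 members and 0 features. After KO 1 and WT 3 are left out, all arrays left of each label come from the same positions, A to C or D to F, so label and position cannot be told apart there. The markers of mesoderm, endothelium, extraembryonic endoderm and ES cells given above move, as sums, with the same division of the arrays. Not every single marker did. Without KO 1 and WT 3, 5 of 6 ES cell markers were higher under the knockout label and 1 lower. Of the 6 streak and mesoderm markers 5 were lower and 1 higher, and all 6 haemangioblast and endothelial markers were lower. Of the 5 endoderm markers 3 were lower and 2 higher. The part of the markers in the differences of the members was not tested.

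The second probes of Psat1 and Shmt2 were not called in this comparison. The second Psat1 probe read 901, 843 and 795 on WT 1 to WT 3 and 834, 844 and 853 on KO 1 to KO 3, a difference of -0.04 (limma adjusted p = 0.88). The second Shmt2 probe gave -0.11 (limma adjusted p = 0.79). Chac1 and Slc7a5 had no second probe named for them, bright or dim, so their calls could not be compared between probes. The platform annotation names the Slc7a5 probe and the second Psat1 probe, as well as the Phgdh probe, while the deposited symbol column lists all 3 under provisional locus symbols, so a near-identical copy could share their signal.

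No other member passed the threshold without the 2 arrays. Atf5 came nearest, at -0.26 (SE 0.08, limma adjusted p = 0.078), followed by Slc3a2 at -0.24 (SE 0.09, limma adjusted p = 0.16) and Trib3, in the other direction, at 0.23 (SE 0.09, limma adjusted p = 0.17). Atf4 differed by -0.25 (SE 0.12, limma adjusted p = 0.25), and Asns by -0.01 (SE 0.09, limma adjusted p = 0.96). At their brightest probes, the 12 synthetases had adjusted p from 0.30 to 0.97 in limma. The 95% intervals of these differences lay between -0.33 and 0.36. The second Wars probe gave 0.23 (SE 0.09, limma adjusted p = 0.20), against 0.03 at the brightest.

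**Figure D4:**
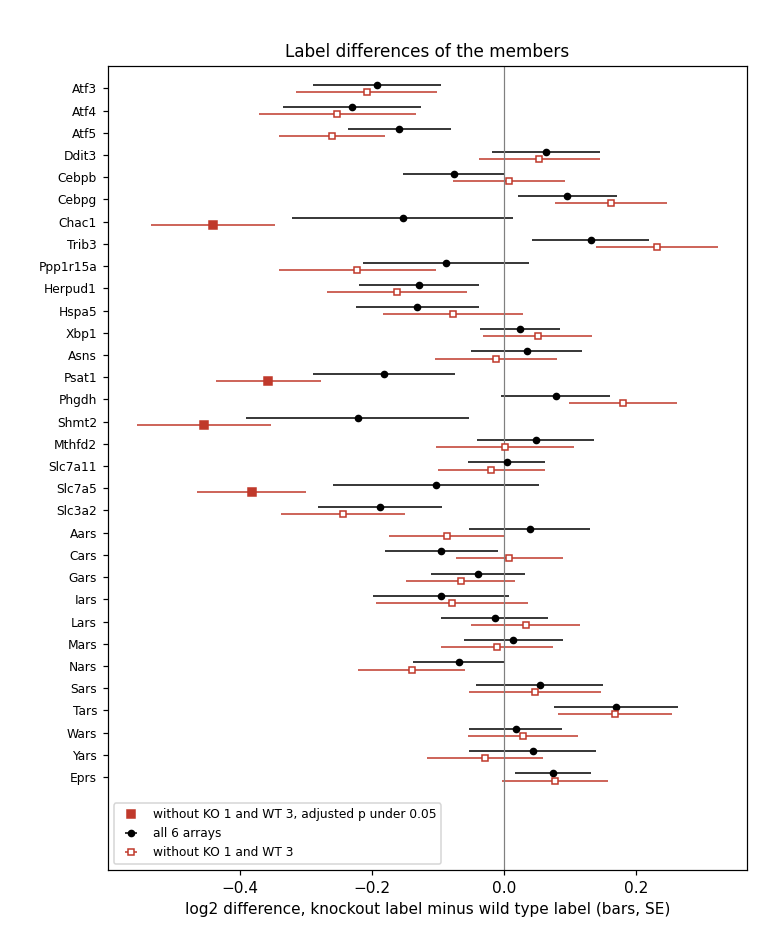
Log2 difference of each tested member, knockout label minus wild type label, with its SE, over all 6 arrays (black circles) and without KO 1 and WT 3 (red squares, filled where the limma adjusted p is under 0.05). Chac1, Psat1, Shmt2 and Slc7a5 are the filled squares, between -0.36 and -0.45. The synthetases lie between -0.10 and 0.17 over all 6 arrays, and between -0.14 (Nars) and 0.17 (Tars) without KO 1 and WT 3. Each gene is shown at its brightest probe.

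The place of KO 1 and WT 3 among the arrays was counted gene by gene, as a description. KO 1 lay nearer to WT 1 and WT 2 in 17 of 32 members (53.1%), against 63.0% of all features. WT 3 lay nearer to KO 2 and KO 3 in 19 members (59.4%), against 62.1%. Both held in 8 members (25%), against 38.8%: Cebpb, Chac1, Trib3, Ppp1r15a, Psat1, Slc7a5, Aars and Cars.

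Related genes outside the 33 were read from 5 lists, and over 6 arrays limma called 0 members of each. Of the other cytosolic synthetases and their scaffold proteins, 11 of 11 were tested. The smallest p values belonged to Eef1e1, Dars and Aimp1. Eef1e1, a scaffold protein of the multi-synthetase complex, read 826, 717 and 654 on WT 1 to WT 3 and 697, 556 and 605 on KO 1 to KO 3, a difference of -0.23 (SE 0.11). Dars, for aspartate, had -0.17 (SE 0.09), and Aimp1, another scaffold protein, -0.10 (SE 0.08). Of the mitochondrial synthetases 14 of 17 were tested, led by Aars2 at -0.12 (SE 0.08), Tars2 at 0.09 (SE 0.07) and Sars2 at 0.13 (SE 0.09).

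Of the eIF2 kinases, eIF2 and eIF2B subunits and the phosphatase cofactor, 11 of 13 were tested. Eif2ak4, the kinase GCN2 that senses uncharged tRNA, and Eif2ak3, the ER kinase PERK, were above background on 2 arrays each and were not tested. Eif2s3x, the gamma subunit of eIF2, read 1114, 899.6 and 926 on WT 1 to WT 3 and 944, 734 and 789.9 on KO 1 to KO 3, a difference of -0.25 (SE 0.12). Eif2b4 followed at -0.08 (SE 0.08) and Eif2s1 at -0.07 (SE 0.07).

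Of 24 other amino acid response genes 21 were tested. The glutamine carrier Slc38a1 had the only unadjusted p under 0.05 in the 5 lists, 0.034, with 69.7, 76.1 and 85.1 on WT 1 to WT 3 and 90.7, 89.1 and 91.9 on KO 1 to KO 3. Its labels did not overlap, and the difference was 0.19 (SE 0.07, limma adjusted p = 0.9995). Stc2, a secreted glycoprotein, had -0.14 (SE 0.08), and the related carrier Slc38a2 0.21 (SE 0.16). Of 18 other unfolded protein response genes 17 were tested, led by Edem1 at 0.16 (SE 0.07), Pdia6 at -0.14 (SE 0.09) and Dnajb9 at -0.14 (SE 0.09). Without KO 1 and WT 3, limma called 1 lower in the first list, 0 in the second and 1 lower in the third. It called 2 higher and 2 lower in the fourth, and 1 higher in the fifth. Over the 5 lists together, 4.05% of the genes tested were called higher and 5.41% lower. These shares were near those of all features, 3.87% and 4.41%.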

How the data were processed

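Total RNA of 6 day 3 embryoid body samples was measured on Illumina mouse bead arrays. The authors deposited a linear intensity for every probe and array, with a normalisation method not given in the sources used here. All 6 columns shared 1 highest value (32123) and medians of 45.1, as after quantile normalisation, with a background peak of 38.6 to 38.8. A table of unnormalised signals has 12 value columns that match no sample label and were not used, nor were its detection p-values; its symbol column was used for names.

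Background was corrected by normexp with an offset of 50 before the log2 step, using limma 3.58.1 (R 4.3.3). Probes entered the tests if above the 95th percentile of a background modelled around the commonest intensity, on at least 3 of 6 arrays, which left 22491 of 46632 probes. The platform annotation gave 1 gene for 29976 probes and several for 10, the deposited symbols named 7384 more, and 9262 had no name here. Each gene was represented by its brightest probe, giving 15996 features, of which 13250 were named genes. The members had 59 probes, 50 of them kept.

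Labels were compared with lmFit and eBayes (two-sided, Benjamini-Hochberg over all features, threshold 0.05), with no covariates. Fits were tested on simulated data. The members, lists and array exclusions were chosen with earlier results of these data known. All members are named, as are the 3 genes with the smallest p of each related list. Promoter sequences are RefSeq's (GRCm38.p6), and 1 matching site is not reported here.

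Alternatives covered background correction, normalisation, filter, probe choice, variance model, array weights, replicate number or slide position as a block, and each array left out.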

Additional observations from a re-analysis of the deposited data

How the results depend on the processing

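Over 18 alternative settings, 571 of 575 log2 differences of single members stayed on the same side of the threshold in limma and 4 became called, all 4 without KO 1 and WT 3. That setting gave 4 member genes called and 1324 features called, against 0 and 0 over 6 arrays; in the other settings the counts were 0 and 0, and the smallest adjusted p of a member was 0.60. Without KO 1 alone 1095 features had an unadjusted p under 0.05, and without WT 3 alone 1183, against 349 over 6 arrays. Uncalled differences changed sign in 34 cases. The median of the synthetases, 0.02 over 6 arrays, ran from -0.04 (without KO 1) to 0.03 (without KO 3) with 1 array left out, and turned sign without WT 1 as well (-0.03). The median of all members ran from -0.05 to -0.01. With the replicate number as a replicate block, 0 members and 0 features were called, with 679 features at an unadjusted p under 0.05. Deviations of same-numbered arrays from their label means correlated at 0.62, -0.31 and 0.54 across 15996 features. Of the 6 arrays, 3 correlated best with their own number. Because KO 1 and WT 3 stand apart from their labels, the division of the arrays alone gives these signs. The check therefore cannot decide whether the numbers pair the samples. Few arrays and signals near background (Atf3, Yars, Slc7a11) limit what could be shown.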

Other observations

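Among the 74 related genes tested, 7 were called without KO 1 and WT 3, which is 9.46%, against 8.28% of all features in the same comparison. They are named here after their values were seen. Vldlr, a lipoprotein receptor, read 399, 368 and 87.6 on WT 1 to WT 3 and 384, 97.6 and 90.1 on KO 1 to KO 3, high on WT 1, WT 2 and KO 1 with no overlap with the other arrays. The cationic amino acid carrier Slc7a3 ran the opposite way, at 819, 886 and 2145 against 905, 1752 and 1741. Without the 2 arrays the log2 differences were -1.80 (SE 0.09) and 1.02 (SE 0.08). Slc7a3 and the member Slc7a5 are both amino acid carriers, yet the former was lower and the latter higher on WT 1, WT 2 and KO 1.

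Vegfa, a vascular growth factor also induced in stress, gave -0.42 (SE 0.10, limma adjusted p = 0.023), Eef1e1 -0.40 (SE 0.09, limma adjusted p = 0.025) and Eif2s3x -0.39 (SE 0.10, limma adjusted p = 0.047). Slc38a2, an ATF4-induced glutamine carrier, gave 0.39 (SE 0.10, limma adjusted p = 0.032), and Creld2, an ER stress-induced ER protein, 0.34 (SE 0.08, limma adjusted p = 0.029). Slc38a2 read 489, 576 and 802 on WT 1 to WT 3 and 722, 671 and 733 on KO 1 to KO 3, so KO 1 lay with the other knockout labels there. As for the members, label and slide position cannot be told apart in this comparison, and over all 6 arrays none of the 7 was called in limma (adjusted p = 0.9995).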
